A study of Mus musculus with 6 samples.

Results

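Wnt proteins are secreted, lipid-modified glycoproteins that act over short distances between neighbouring cells, and stromal fibroblasts are among the cells that release them and the proteins that block them. A Wnt ligand binds a Frizzled receptor. With the co-receptors LRP5 and LRP6 this stabilizes β-catenin, which then drives transcription with TCF/LEF factors, while other ligands, such as WNT5A and WNT11, act mainly through routes that do not use β-catenin and that govern cell polarity and movement. Secreted Frizzled-related proteins (SFRPs) carry a domain that resembles the ligand-binding part of Frizzled and can bind Wnt ligands, whereas Dickkopf (DKK) proteins act at the LRP co-receptors. The 10 genes described here encode 5 Wnt ligands (Wnt2, Wnt4, Wnt5a, Wnt5b and Wnt11) and 5 secreted antagonists or related proteins (Sfrp1, Sfrp2, Sfrp4, Dkk2 and Dkk3). They were chosen by name, with earlier results of these data known, from the 53801 genes of the count table, and all 10 were in it.

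The RNA came from PDPN+PDGFRα+ cells sorted from MO5 tumors, an ovalbumin-expressing line of the B16 melanoma grown under the skin of C57BL/6 mice, after cells bearing CD45 or CD31 had been gated out. The DTR group carried ADAM12-DTR, a bacterial artificial chromosome transgene in which the Adam12 promoter drives a tetracycline transactivator and the diphtheria toxin receptor, so that toxin removes cells in which this promoter is active. The Ctrl group were littermates without the transgene, and mice of both groups were given diphtheria toxin. There were 3 libraries per group. The sources used here do not say whether each library came from 1 animal or from a pool, so the p-values describe the spread between these libraries, which may in part be technical. The comparison asks how the stromal cells that remained after removal of ADAM12+ cells differed from the stroma of intact mice.

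The libraries held 22339635 to 34271929 counted reads, and 3 reads corresponded to 0.0873 to 0.132 CPM, that is, read counts scaled to a common library size with edgeR's TMM factors. Pairs of libraries correlated at r = 0.961 to 0.974 within groups and 0.953 to 0.974 between groups. Adam12 itself was at 216, 181 and 175 CPM in Ctrl replicates 1 to 3 and at 165, 151 and 112 CPM in DTR replicates 1 to 3, so that it was lower in every DTR library but still read in all of them (log2 fold change −0.42, SE 0.154, adjusted p = 0.602, edgeR). The defining genes of the sort were present, Pdgfra at 42.7 to 132 CPM and Pdpn at 46.0 to 99.2 CPM. The 9 fibroblast markers summed to 5170 to 13600 CPM in Ctrl and 5570 to 14100 CPM in DTR, while 12 melanocyte markers summed to more than this in every library, 17700 to 20800 CPM in Ctrl and 16600 to 19600 CPM in DTR. The sorted RNA therefore carried melanocyte transcripts beside those of the labelled stromal cells. In such bulk RNA, fewer cells of a type and less RNA per cell cannot be told apart.

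The 10 genes spanned a wide range of levels. Levels of different genes are compared as CPM per kb of annotated exon, averaged over the 6 libraries. Dkk3, which encodes a Dickkopf-related secreted glycoprotein whose action on Wnt signalling differs from that of its relatives, stood first at 39.7 ± 5.44 CPM per kb (SD, n = 6). It was followed by Sfrp2 at 24.4 ± 17.6 and Sfrp4 at 12.7 ± 12.5 CPM per kb. Wnt2 was the ligand with the highest level, 4.01 ± 3.38 CPM per kb, and exceeded Dkk2 at 1.45 ± 0.896 CPM per kb in 6 of 6 libraries. Sfrp1 stood at 1.08 ± 0.355, Wnt5b at 0.666 ± 0.166, Wnt11 at 0.404 ± 0.362 and Wnt5a at 0.281 ± 0.166 CPM per kb. Across libraries the ranges of all neighbours in this order overlapped except those of Wnt5a and Wnt4. Within libraries the order was firmer. Sfrp2 exceeded Sfrp4, and Sfrp4 exceeded Wnt2, in 6 of 6 libraries, and Dkk3 exceeded Sfrp2 in 5 of 6, whereas Dkk2 exceeded Sfrp1 in 3 of 6. On these averages the antagonist transcripts were thus read at higher levels per length than the ligand transcripts, apart from Wnt2, which stood above Dkk2 and Sfrp1. Within libraries Sfrp1 exceeded Wnt5b in 5 of 6. In Ctrl replicate 3, Wnt5b (0.715 CPM per kb) stood above both Sfrp1 (0.627) and Dkk2 (0.379).

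**Figure D1:**
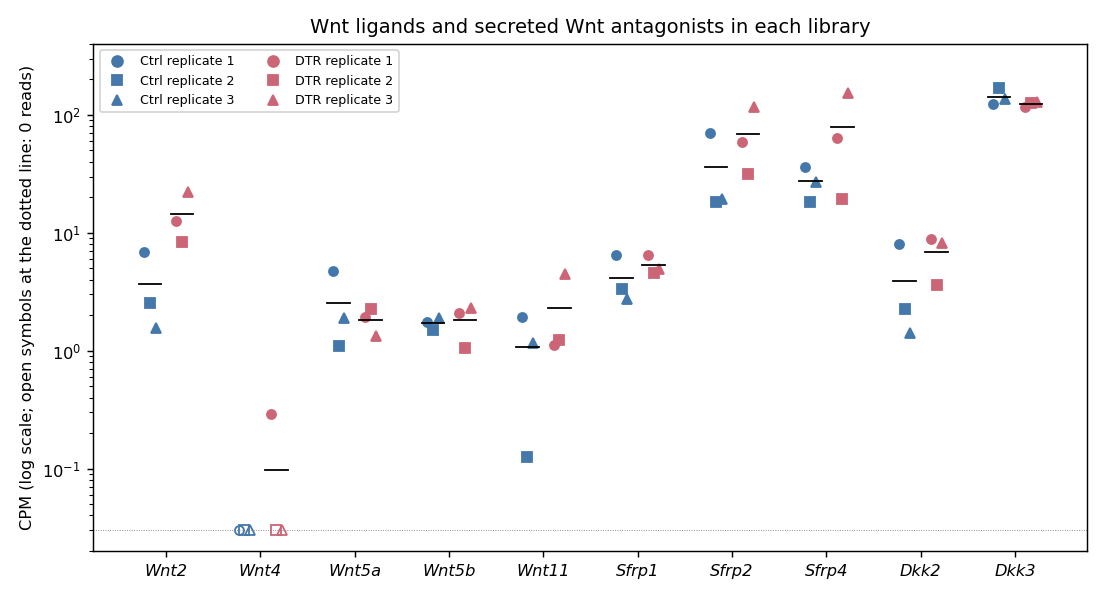
CPM of each gene (log scale) in the 3 Ctrl and the 3 DTR libraries. Each symbol is 1 library, black bars are group means, and open symbols on the dotted line are libraries with 0 reads. Dkk3, Sfrp2 and Sfrp4 lie at the top, and Wnt2 is the tested gene in which all DTR symbols lie above all Ctrl symbols.

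Promoter sequence is shown for the 4 genes that had a RefSeq window and a log2 fold change over 0.8 in DTR, since several of these were high in the same libraries. RefSeq (build GRCm38.p6) gave windows for 6 of the 10 genes, Wnt2, Wnt4, Wnt5b, Wnt11, Sfrp2 and Dkk2. The stretches lie immediately upstream of the annotated gene and are written 5′ to 3′ on the strand of the gene. They are chr6:18030586-18030695 on the minus strand for Wnt2, chr3:83766071-83766320 on the plus strand for Sfrp2, chr3:132085042-132085291 on the plus strand for Dkk2 and chr7:98834862-98835111 on the plus strand for Wnt11. Capitals mark matches, on either strand, to 4 short motifs, namely the TATA box (TATAAA), the GC box (GGGCGG), the TCF/LEF core (CTTTGA) and the hypoxia response core (ACGTG).
Wnt2: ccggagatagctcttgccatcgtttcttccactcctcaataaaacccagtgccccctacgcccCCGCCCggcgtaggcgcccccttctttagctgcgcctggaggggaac
Sfrp2: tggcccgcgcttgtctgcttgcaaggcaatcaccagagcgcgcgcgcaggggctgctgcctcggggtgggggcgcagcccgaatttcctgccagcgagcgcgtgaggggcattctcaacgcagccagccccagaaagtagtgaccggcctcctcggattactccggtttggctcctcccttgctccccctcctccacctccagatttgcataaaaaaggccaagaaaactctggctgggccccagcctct
Dkk2: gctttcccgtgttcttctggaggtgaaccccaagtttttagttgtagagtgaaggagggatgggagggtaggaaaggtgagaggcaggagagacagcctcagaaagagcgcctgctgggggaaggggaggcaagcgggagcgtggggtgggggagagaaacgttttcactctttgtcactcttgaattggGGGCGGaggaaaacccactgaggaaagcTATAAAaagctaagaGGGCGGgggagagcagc
Wnt11: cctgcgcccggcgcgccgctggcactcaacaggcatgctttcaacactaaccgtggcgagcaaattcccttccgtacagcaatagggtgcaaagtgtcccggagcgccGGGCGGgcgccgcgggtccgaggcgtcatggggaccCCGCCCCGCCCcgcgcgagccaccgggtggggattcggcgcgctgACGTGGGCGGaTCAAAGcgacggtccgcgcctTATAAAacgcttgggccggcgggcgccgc
Among 32851 promoter windows of 250 bases, 12.4% held the TATA box letters, 32.7% the GC box, 13.8% the TCF/LEF core and 16.6% the hypoxia response core. The Wnt2 stretch was cut to 110 bases, because its RefSeq window runs into the annotated gene, so its count is not on the same footing as these shares. It held 1 GC box, and none of the 4 motifs was spelled in the Sfrp2 stretch. Dkk2 had a TATA box 32 bases before its start and 2 GC boxes, 1 on each side of it. Wnt11 held all 4 kinds, with a TATA box 29 bases before the start, 1 TCF/LEF core, 1 hypoxia response core and 4 GC boxes, of which 1 overlapped the hypoxia response core. No motif was common to the 4 stretches. The matches are descriptions of letters only, and no binding was measured.

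No gene passed the adjusted threshold in edgeR. Of 15133 genes tested by edgeR's quasi-likelihood method, 0 (0%) had a Benjamini-Hochberg adjusted p under 0.05, 1199 (7.92%) had an unadjusted p under 0.05. DESeq2 called 31 of the 20360 genes to which it gave an adjusted p (0.152%). Of the 10 Wnt pathway genes, 9 had enough reads to be tested and 0 passed under either tool. Unadjusted p was under 0.05 in 2 of the 9, Wnt2 and Sfrp4, both higher in DTR, where 3.81% of all tested genes were higher at this level. This count rested on single libraries. Without Ctrl replicate 1 it was 6 of 9, beside 8.35% of all genes tested in that fit, with Wnt2, Sfrp1, Sfrp2, Sfrp4 and Dkk2 higher and Dkk3 lower in DTR. It was 1 of 9 (Wnt2) without Ctrl replicate 2, Ctrl replicate 3, DTR replicate 1 or DTR replicate 3, beside 5.21%, 6.09%, 10.2% and 6.07% of all genes in those fits. The groups did not overlap in 1 of the 9 (Wnt2), where DTR lay above Ctrl, beside 6.32% of all tested genes in this direction, 8.18% in the other and 14.5% in all. Fold changes were above 0 for 7 of the 9 genes and for 49.6% of all tested genes, with a median log2 fold change of 0.83 beside −0.0029 over all tested genes. These 7 are not separate observations, since most of them were high or low in the same libraries. The 10 genes were also chosen with earlier results of these data known, so the contrast is a description and was not tested. Stromal markers moved the same way. Fold changes were above 0 for 9 of 9 fibroblast markers (median 0.39) and for 5 of 5 markers of the study's S1 stroma, listed below (median 0.92).

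Wnt2 encodes a ligand known for its role in lung and blood vessel development and for its production by mesenchymal cells. The gene (ENSMUSG00000010797) lies on chromosome 6 from 17988940 to 18030585 on the minus strand (GRCm38). Its level was 6.94, 2.55 and 1.55 CPM in Ctrl replicates 1 to 3 and 12.6, 8.28 and 22.3 CPM in DTR replicates 1 to 3, from 170, 61 and 44 reads against 434, 257 and 505 reads. Every DTR library stood above every Ctrl library, with DTR replicate 2 closest to Ctrl replicate 1. The means were 3.68 ± 2.87 and 14.4 ± 7.16 CPM (SD, n = 3 each). The log2 fold change was 1.97 (SE 0.572), a 3.91-fold difference, with an unadjusted p of 0.00895 and an adjusted p of 0.602 in edgeR. An exact two-sided permutation test gave p = 0.1, the smallest that 3 libraries against 3 can give. When single libraries were left out, the log2 fold change lay between 1.51 and 2.81, and over all 16 alternative settings the adjusted p lay between 0.35 and 0.852. Its unadjusted p in edgeR lay between 0.000418, with all genes of at least 1 count, and 0.0367, without Ctrl replicate 2. With robust moderation it was 0.0245. The difference was thus of the same sign in every setting but was not past the adjusted threshold in any of them.

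The other ligands were read at low levels. Wnt5a, the archetype of ligands that act without β-catenin (ENSMUSG00000021994; chromosome 14, 28504750 to 28527448, plus strand), was at 4.70, 1.09 and 1.90 CPM in Ctrl and 1.92, 2.25 and 1.32 CPM in DTR. Ctrl replicate 1 was high and the groups overlapped, and the log2 fold change of −0.48 (SE 0.55, adjusted p = 0.831) turned to 0.29 without that library. Its close relative Wnt5b (ENSMUSG00000030170; chromosome 6, 119432531 to 119544347, minus strand) was at 1.76, 1.51 and 1.90 CPM in Ctrl and 2.09, 1.06 and 2.29 CPM in DTR. These levels overlapped, with the lowest and the highest both in DTR (log2 fold change 0.07, SE 0.406, adjusted p = 0.967). The annotated span of Wnt5b overlaps that of Fbxl14 on the opposite strand, which had 5104 reads beside 290 for Wnt5b. Whether their exons overlap was not examined. The counting used strand.

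Wnt11, a ligand of the planar polarity route (ENSMUSG00000015957; chromosome 7, 98835112 to 98855195, plus strand), was at 1.92, 0.126 and 1.16 CPM in Ctrl and 1.11, 1.22 and 4.50 CPM in DTR. The groups overlapped. The highest library was DTR replicate 3 and the lowest Ctrl replicate 2, in which 3 reads were counted. The log2 fold change was 1.07 (SE 0.882, adjusted p = 0.754) and 0.12 without DTR replicate 3. Wnt4, a ligand known from kidney and female reproductive tract development (ENSMUSG00000036856; chromosome 4, 137277489 to 137299726, plus strand), had 10 reads, all of them in DTR replicate 1 (0.291 CPM), and 0 in the other 5 libraries. It was too low to be tested, and at this depth a level of up to 0.0966 to 0.132 CPM is allowed by the 0 counts, for counting error only.

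The SFRP genes differed in their spread, the highest and lowest libraries being 8.39-fold apart for Sfrp4, 6.36-fold for Sfrp2 and 2.37-fold for Sfrp1, beside 14.4-fold for Wnt2. Sfrp2, a product of activated fibroblasts in wounds and tumors (ENSMUSG00000027996; chromosome 3, 83766321 to 83774316, plus strand), was at 69.8, 18.3 and 19.5 CPM in Ctrl and 59.2, 31.7 and 117 CPM in DTR. The highest library was DTR replicate 3, but Ctrl replicate 1 exceeded the other DTR libraries, so that the groups overlapped. The means were 35.9 ± 29.4 and 69.2 ± 43.3 CPM, with a log2 fold change of 0.95 (SE 0.609, adjusted p = 0.693). That value was 1.87 without Ctrl replicate 1 and 0.34 without DTR replicate 3.

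Sfrp4, the family member tied to bone and to phosphate handling (ENSMUSG00000021319; chromosome 13, 19623104 to 19632994, plus strand), was at 36.3, 18.4 and 27.2 CPM in Ctrl and 63.3, 19.2 and 155 CPM in DTR. DTR replicates 1 and 3 were above all Ctrl libraries, whereas DTR replicate 2 was level with the lowest of them. The log2 fold change was 1.53 (SE 0.635), with an unadjusted p of 0.0427 and an adjusted p of 0.608, and it was 0.60 without DTR replicate 3, in which 3506 of its 8381 reads lay. With all libraries kept, its unadjusted p was 0.0598 in DESeq2, 0.0996 with robust moderation in edgeR, and 0.619 and 0.269 with the melanocyte and the fibroblast marker covariate. Sfrp1, a broadly expressed inhibitor (ENSMUSG00000031548; chromosome 8, 23411502 to 23449632, plus strand), was at 6.45, 3.31 and 2.74 CPM in Ctrl and 6.49, 4.57 and 4.90 CPM in DTR. Ctrl replicate 1 and DTR replicate 1 were almost equal at the top, and the groups overlapped (log2 fold change 0.35, SE 0.36, adjusted p = 0.804). That value was 0.13 without Ctrl replicate 3, 0.82 without Ctrl replicate 1 and 0.02 with a melanocyte marker covariate.

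The Dickkopf genes differed from each other in their spread. Dkk2, which encodes a protein that binds LRP5 and LRP6 and can inhibit or weakly activate the pathway (ENSMUSG00000028031; chromosome 3, 132085292 to 132180304, plus strand), was at 7.96, 2.26 and 1.41 CPM in Ctrl and 8.90, 3.64 and 8.12 CPM in DTR. Its highest and lowest libraries differed 6.33-fold, and Ctrl replicate 1 lay among the DTR libraries. The log2 fold change was 0.83 (SE 0.633, adjusted p = 0.741), and it lay between 0.43, without Ctrl replicate 3, and 1.91, without Ctrl replicate 1. Dkk3 (ENSMUSG00000030772; chromosome 7, 112116017 to 112159057, minus strand) was at 124, 168 and 137 CPM in Ctrl and 116, 126 and 129 CPM in DTR. Ctrl replicate 2 was the highest library, the groups overlapped, and the extremes differed 1.45-fold. Its log2 fold change of −0.21 (SE 0.121, adjusted p = 0.666) stayed between −0.30 and −0.08 over all settings.

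**Figure D2:**
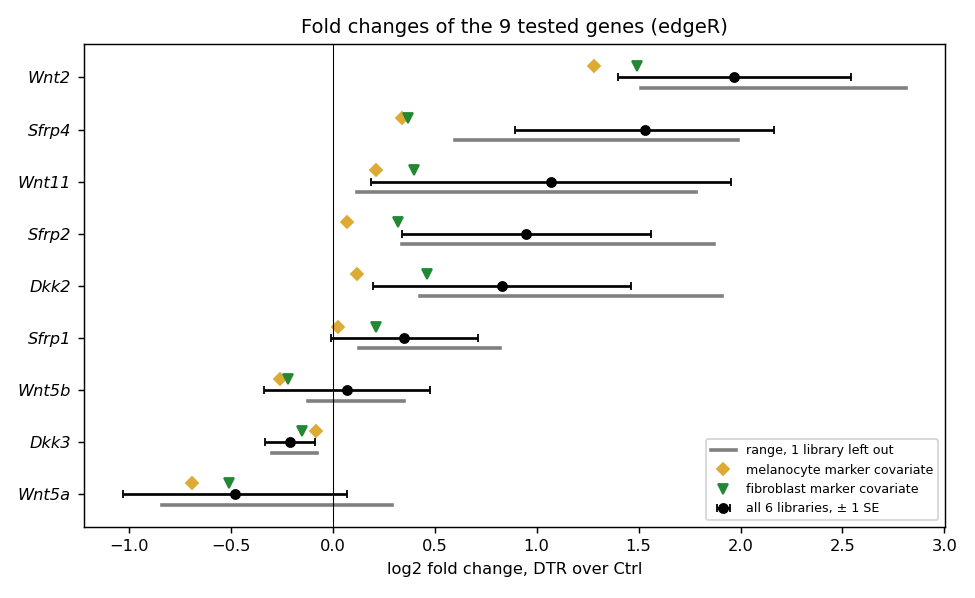
log2 fold change of DTR over Ctrl for the 9 tested genes, with black points and ± 1 SE for all 6 libraries, grey bars for the range with 1 library left out, and coloured symbols for fits with a melanocyte or a fibroblast marker covariate. Wnt2 stays above 1 in all of them, from 1.28 to 2.81, while Sfrp2, Sfrp4, Dkk2 and Wnt11 move to between 0.07 and 0.46 with a covariate.

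Among the libraries, the levels of most of these genes moved with the fibroblast markers. Fibroblast markers summed to 13600 CPM in Ctrl replicate 1, 10900 CPM in DTR replicate 1 and 14100 CPM in DTR replicate 3, and to 5170 to 5570 CPM in the other 3 libraries. The 3 highest libraries of Sfrp1, Sfrp2, Sfrp4 and Dkk2 were these same 3, and Wnt2 and Wnt11 were also highest in DTR replicate 3. The 5 markers of the study's S1 stroma (Cd34, Dpp4, C3, Il6ra and Il6st) summed to 1110, 575 and 780 CPM in Ctrl and to 1180, 563 and 2680 CPM in DTR, again with the highest value in DTR replicate 3. All 5 had log2 fold changes above 0, with a median of 0.92. By flow cytometry the study reported a lower frequency of S1 cells in depleted tumors, which is a different measure from RNA of a sorted fraction. Dkk3 was highest in Ctrl replicate 2, where fibroblast markers were low and melanocyte markers highest at 20800 CPM. Dkk3 and Sfrp2, the pair with the highest levels, thus followed opposite orders in Ctrl.

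**Figure D3:**
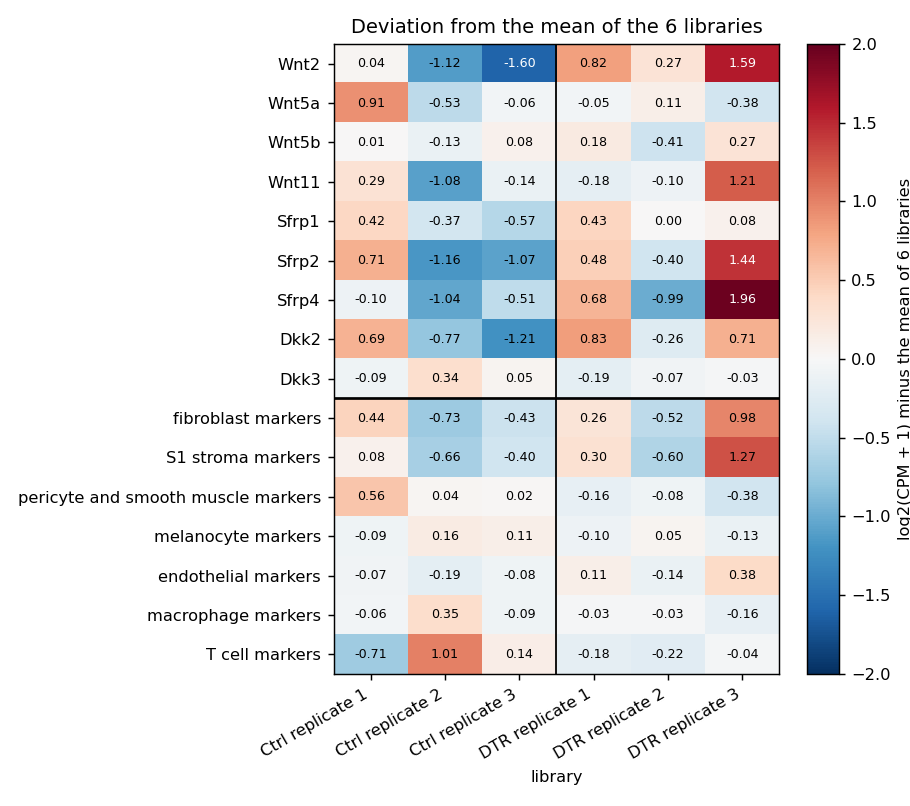
Deviation of log2(CPM + 1) of each tested gene (above the line) and of the mean of each marker list (below it) from the mean of the 6 libraries, in columns for Ctrl and DTR replicates. Sfrp2 at 0.71, 0.48 and 1.44 and the fibroblast list at 0.44, 0.26 and 0.98 are both above their means in Ctrl replicate 1, DTR replicate 1 and DTR replicate 3, and Dkk3 stays within −0.19 to 0.34.

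Fits were also made with a marker level as a covariate, on the same libraries. With the mean level of the 12 melanocyte markers in the fit, the log2 fold change of Sfrp2 was 0.07 (SE 0.227), that of Sfrp4 0.34 (SE 0.652), that of Dkk2 0.12 (SE 0.361) and that of Wnt11 0.21 (SE 0.826). With the mean of the 9 fibroblast markers, a covariate added after the data had been seen, they were 0.32 (SE 0.168), 0.37 (SE 0.315), 0.46 (SE 0.426) and 0.40 (SE 0.675). Wnt2 was at 1.28 (SE 0.347, unadjusted p = 0.00657) and 1.49 (SE 0.316, unadjusted p = 0.00141), below its 1.97 without a covariate. Its adjusted p stayed above the threshold in both fits. Whether the share of melanocyte or fibroblast transcripts accounts for any of these differences was not tested.

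A ratio within each library sets the genes against a receptor used for the sort. Per 100 reads of Pdgfra, Wnt2 had 5.56, 5.99 and 2.46 reads in Ctrl and 13.0, 15.3 and 16.9 reads in DTR. The means were 4.67 ± 1.93 and 15.1 ± 1.94 reads, and the spread within each group was smaller, relative to its mean, than in CPM. Sfrp2 had 55.9, 43.0 and 31.0 reads in Ctrl and 61.2, 58.7 and 88.5 reads in DTR, with no overlap on this scale, whereas Sfrp4 (29.1, 43.2 and 43.1 against 65.5, 35.5 and 117 reads) and Dkk2 (6.38, 5.30 and 2.23 against 9.20, 6.73 and 6.16 reads) overlapped. Dkk3 ranged from 98.2 to 394 reads. The ratio was chosen after the levels had been seen and was given no test. On this scale DTR lay wholly above Ctrl in 1.27% of 15132 tested genes and wholly below it in 0.905%. Pdgfra itself ranged from 42.7 to 132 CPM, so dividing by it spreads the values of genes that do not follow it. The shares over all genes are therefore not a reference for stromal genes. Among stromal genes set beside the Wnt genes, Dpp4 did not overlap either, at 35.9, 50.3 and 52.8 reads in Ctrl and 64.6, 54.9 and 145 reads in DTR, whereas Pdpn (58.7 to 108 reads), Col1a1, Dcn, Lum and Cd34 overlapped.

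**Figure D4:**
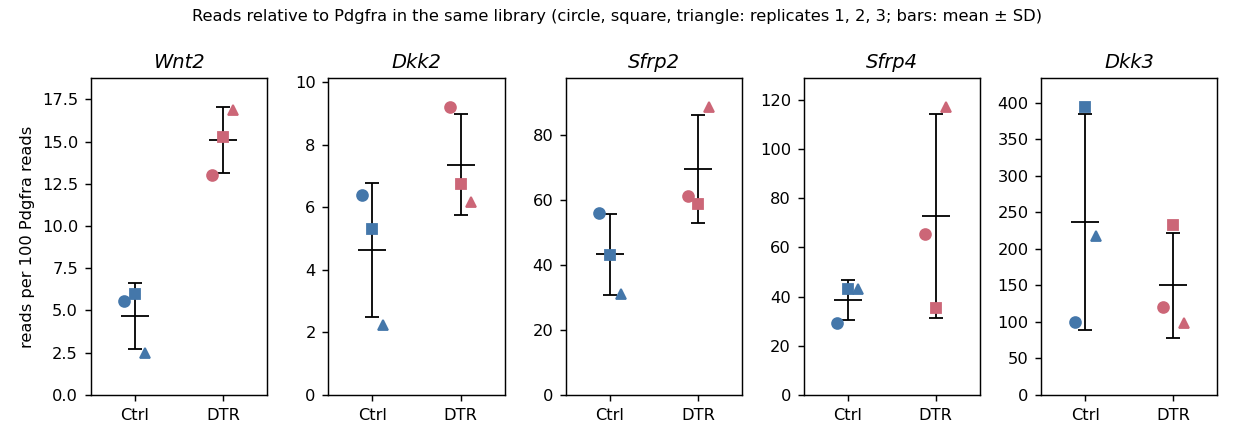
Reads of 5 genes per 100 Pdgfra reads in each library, on linear axes of their own that start at 0, with bars for the mean and ± 1 SD of each group (n = 3). Wnt2 lies at 2.46 to 5.99 in Ctrl and 13.0 to 16.9 in DTR, and Dkk3 overlaps over a range of 98.2 to 394.

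Marker lists of other cell types stood far below both of these. The 9 pericyte and smooth muscle markers summed to 52.1 to 91.4 CPM in Ctrl and 39.5 to 56.7 CPM in DTR, with Higd1b at 0 in every library and Rgs5 at 0 to 1.06 CPM. Most of this sum was Mcam, at 27.9 to 49.7 CPM, and Cspg4 was lower in every DTR library, at 5.82 to 12.3 CPM in Ctrl and 3.02 to 5.34 CPM in DTR (log2 fold change −1.02, SE 0.334, unadjusted p = 0.0158, adjusted p = 0.602). Cspg4 encodes NG2, and by staining the study reported more NG2+ pericyte coverage of vessels in depleted tumors, a different measure. The 10 endothelial markers summed to 27.7 to 35.0 CPM in Ctrl and 34.2 to 102 CPM in DTR, highest in DTR replicate 3, where Wnt2 and Sfrp4 were also highest. Tek carried most of that peak, at 62.9 CPM in DTR replicate 3 and 4.36 to 14.7 CPM elsewhere, and Kdr was at 12 CPM in that library and 1.58 to 4.53 CPM elsewhere. Vwf was higher in every DTR library, at 12.1 to 15.5 CPM in Ctrl and 19.8 to 21.3 CPM in DTR (log2 fold change 0.51, SE 0.14, unadjusted p = 0.00691, adjusted p = 0.602). Cdh5 was at 0.49 to 1.37 CPM in Ctrl and 0 to 0.553 CPM in DTR, with 0 reads in DTR replicate 3 (log2 fold change −1.53, SE 0.956, adjusted p = 0.687). Pecam1 was at 2.61 to 8.03 CPM and overlapped, and Emcn, Cldn5 and Tie1 were at 0 to 0.105 CPM. The 10 macrophage markers summed to 109 to 157 CPM in Ctrl and 104 to 118 CPM in DTR. The 8 T cell markers summed to 6.86 to 44.8 and 13.7 to 17.8 CPM, the 9 keratinocyte markers to 6.45 to 10.2 and 6.44 to 8.66 CPM, and the 6 Schwann cell markers to 198 to 272 and 169 to 260 CPM. All of these sums overlapped between the groups, but some single markers were lower in every DTR library. These were Mrc1 (log2 fold change −0.57), Cd3d (−1.23), and Sox10 and Rab27a of the melanocyte list (both −0.28). Fold changes were below 0 for 8 of 8 T cell and 10 of 12 melanocyte markers, and 0 of them passed the adjusted threshold. The part of other cells in the levels of the Wnt genes was not tested.

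The remaining ligands and antagonists were few. Of 14 other Wnt ligand genes 4 had enough reads to be tested, and 3 (Wnt7a, Wnt8a and Wnt8b) had no read in any library. Wnt9a, a ligand of joint and skeletal development, was at 0.531, 0.921 and 1.12 CPM in Ctrl and 1.19, 2.03 and 2.60 CPM in DTR. The DTR libraries lay above the Ctrl libraries, though only just, with a log2 fold change of 1.16 (SE 0.483), an unadjusted p of 0.0429 and an adjusted p of 0.608. Wnt16 (log2 fold change 1.33, SE 0.772), Wnt10b (0.90, SE 0.706) and Wnt2b (−0.36, SE 0.599) overlapped. Of 10 other secreted antagonist genes 2 were tested, Frzb at 0.24 (SE 0.199) and Draxin at 0.14 (SE 0.725). Counting the 10 genes described here as well, 8 of 19 ligand genes were tested and 6 of these were above 0, and 7 of 15 antagonist genes were tested and 6 of these were above 0. None passed the adjusted threshold.

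Genes for secretion and reception of the signal included single genes with large values and others near 0. Wls, the carrier that brings Wnt proteins to the cell surface, was at 170.0 ± 6.74 CPM in Ctrl and 173 ± 9.92 CPM in DTR, and Porcn, the acyltransferase that adds the lipid, had a log2 fold change of 0.86 (SE 0.621). Of 18 receptor genes 17 were tested and 3 had an unadjusted p under 0.05. The co-receptor gene Lrp5 was at 105, 99.4 and 86.5 CPM in Ctrl and 83.0, 75.3 and 67.7 CPM in DTR (log2 fold change −0.37, SE 0.113, adjusted p = 0.602). Kremen1, whose product helps Dickkopf proteins remove LRP co-receptors from the surface, was at 72.7, 63.3 and 60.2 CPM in Ctrl and 51.0, 52.4 and 53.1 CPM in DTR (log2 fold change −0.33, SE 0.1, adjusted p = 0.602). All DTR libraries were below all Ctrl libraries for both genes. Fzd10 was at 0 to 0.544 CPM in Ctrl and 0.669 to 3.09 CPM in DTR (log2 fold change 2.65, SE 1.11), and Fzd8 had the lowest value of the receptors, −0.71 (SE 0.685).

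The β-catenin route was tested in all 18 of its genes, which lay between −0.29 for Tcf7 and 0.22 for Dvl2, with a median of −0.03. Ctnnb1, the β-catenin gene, was named after its values were seen, at 1350, 1440 and 1350 CPM in Ctrl and 1160, 1320 and 1110 CPM in DTR. Its DTR libraries were the lower ones (unadjusted p = 0.0701, adjusted p = 0.64). In the planar polarity route 9 of 9 genes were tested, from Celsr2 at −0.46 (SE 0.176, unadjusted p = 0.0296) to Vangl2 at 0.08 (SE 0.137). R-spondins, which amplify the response, and their receptors were tested in 6 of 9 genes, from Lgr6 at −0.13 (SE 0.811) to Rspo3 at 0.99 (SE 0.617), and the groups overlapped in all 6.

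Genes known to respond to β-catenin lay on both sides of 0. Of 15 such genes 12 were tested, 8 below 0 and 4 above, with 0 under an unadjusted p of 0.05. The values ran from −0.95 (SE 0.482) for Nkd1, an inhibitor of the route read at 0.613 to 0.796 CPM in Ctrl and 0.322 to 0.407 CPM in DTR, to 1.28 (SE 0.82) for Apcdd1, a membrane inhibitor. Axin2, the most widely used readout of the route and named outside the rule, was at 33.8 ± 5.28 CPM in Ctrl and 33.3 ± 7.34 CPM in DTR (log2 fold change −0.02, SE 0.188). Over all 88 other pathway genes, 65 were tested, 2 higher (Wnt9a and Fzd10) and 3 lower (Lrp5, Kremen1 and Celsr2) at an unadjusted p under 0.05, beside 3.81% and 4.11% of all tested genes. Their median was 0.0, against 0.83 for the 9 tested genes described here. Among stromal markers the medians were 0.39 for the fibroblast list and 0.92 for the S1 list. These medians were not tested against each other.

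**Figure D5:**
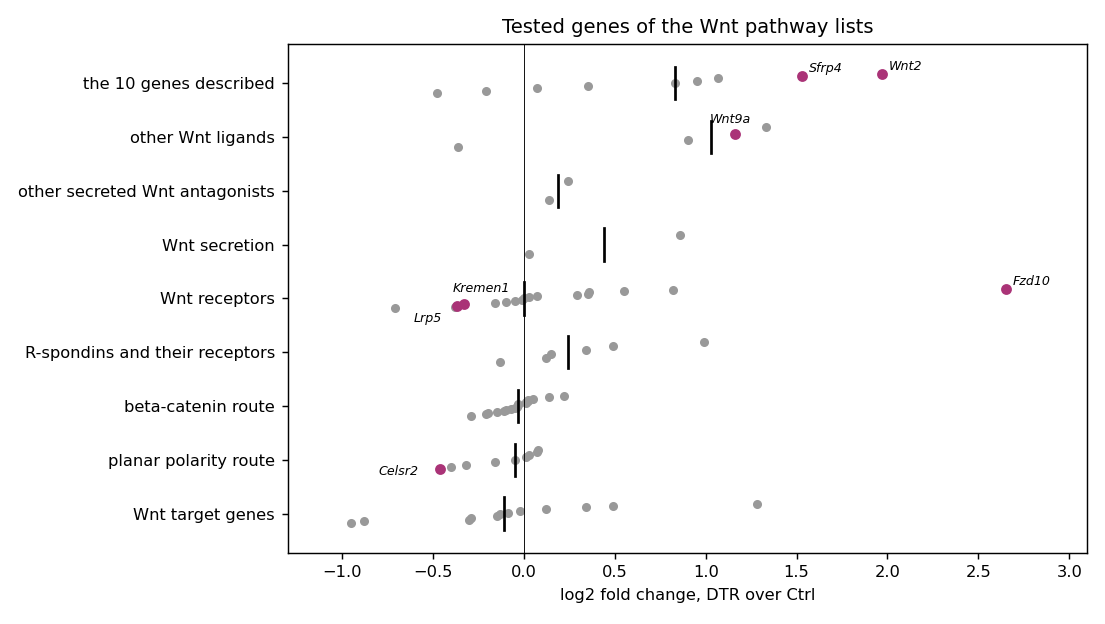
log2 fold change of DTR over Ctrl for each tested gene of the Wnt pathway lists, 1 point per gene, with short bars for the medians and names for genes with an unadjusted p under 0.05. The 10 genes described, of which 9 are drawn, have a median of 0.83, the β-catenin route −0.03 and the target genes −0.11.

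Likeness of patterns over the 6 libraries was examined for the gene with the highest level, Dkk3, among 8792 tested genes with a mean of at least 10 CPM. The nearest patterns were those of Dpp7, a lysosomal dipeptidyl peptidase gene (Pearson's r = 0.995), Cox14, a gene for cytochrome c oxidase assembly (r = 0.991), and Rap2a, a small GTPase gene (r = 0.982). For Wnt2, chosen after its values were seen, the nearest were Gpc6, a glypican gene (r = 0.988), Tshz2, a zinc finger gene (r = 0.986), and Nfib, a transcription factor gene (r = 0.985). Gpc6 was at 19.6 to 70.9 CPM with a log2 fold change of 1.14 (SE 0.24), Tshz2 at 1.36 (SE 0.386) and Nfib at 0.43 (SE 0.117), each with an adjusted p of 0.602. These correlations share the same 6 libraries and their scaling, and are the highest among all genes compared, so they are descriptions without a test.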

How the data were processed

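RNA from PDPN+PDGFRα+ cells of 3 Ctrl and 3 DTR samples was made into strand-specific total RNA libraries. Per the labels and methods, the authors trimmed reads with cutadapt 3.4, aligned them with STAR 2.7.3a (GRCm38) and assigned them to genes with featureCounts 2.0.1, and deposited raw counts for 53801 genes. The same deposited table holds DESeq2 output of the authors, namely normalised values (score), group means, fold changes as a ratio, log2 fold changes and p-values, which were not used. Of the rows, 27987 had no name and 27927 of these were named from GENCODE M21.

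Counts were tested in edgeR 4.0.16 (R 4.3.3) with TMM scaling, a filter at 10 counts (15 in total) and quasi-likelihood F tests, with Benjamini-Hochberg adjustment over 15133 genes and a threshold of 0.05. Each edgeR SE was derived from the test, as the absolute log2 fold change divided by the square root of F. It is therefore not independent of the p-value beside it. DESeq2 1.42.0 was an alternative. Single genes were compared with exact permutation tests on log2(CPM + 1). The main script was tested on simulated counts. Depth was 22339635 to 34271929 counts per library. The limit given for 0 counts covers counting error only, whereas the SD and SE values describe the spread between libraries.

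Levels per kb used the summed exon length of GENCODE M21. None of the 10 genes shared a run of 50 bases with another Wnt ligand or antagonist gene. Genes named beside the 10 were the lowest and highest fold change of each pathway list, those under an unadjusted p of 0.05, the tested ligands and antagonists, and the 3 genes most like the gene with the highest level. The 10 genes, the lists and the tests were chosen with earlier results of these data known.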

Additional observations from a re-analysis of the deposited data

How the results depend on the processing

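The limits are 3 libraries per group and the differing share of fibroblast transcripts among them. With 3 against 3, an exact permutation test cannot give a p below 0.1. For single Wnt genes, 16 alternatives gave 143 values, of which 136 kept the direction and the side of the threshold. The exceptions were Wnt5b, at −0.0617 with an offset for genomic span, −0.26 with the melanocyte covariate and −0.22 with the fibroblast covariate (log2 fold change), and between −0.12 and 0.35 with 1 library left out, and Wnt5a, between −0.84 and 0.29 with 1 library left out. The cause was not tested.

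None of the 10 genes passed the adjusted threshold in any alternative. Over all genes, 31 passed with DESeq2 and 1 with the melanocyte covariate, against 0 in edgeR, and between 0 and 2 with 1 library left out, the 2 without Ctrl replicate 1. Scaling by RLE or by library size alone, 2 other filters and robust moderation gave 0. Wnt4 was tested only with all genes of at least 1 count and in DESeq2.

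Ctrl and DTR libraries share replicate numbers 1 to 3, but same-numbered libraries did not deviate together in every case (r = 0.114, 0.132 and −0.042), so the numbers were not taken as pairs. With the replicate number as a block, 0 genes passed and 1271 had an unadjusted p under 0.05, beside 1199 without it, and Wnt2 had a log2 fold change of 2.06 (SE 0.554).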
